A study of Mus musculus with 9 samples.

Results

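The comparison set 1 kidney library against 2 muscle libraries, all from wild type mice given PBS, and so described what separates the 2 tissues of the study before any tumour, DKK1 or gene deletion. These are 3 of the 9 libraries of the series. They were chosen by their labels, which give tissue, genotype and treatment. A gene was counted as apart when its scaled count lay on the same side of both muscle libraries and the higher library of each pair held 100 or more counts.

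The kidney filters blood in the glomerulus, whose podocytes form the filter, and then recovers water, salts, glucose, amino acids and phosphate along a chain of tubule segments. The proximal tubule does most of this recovery and also makes glucose, oxidises fat and detoxifies organic acids. The loop of Henle, distal convoluted tubule and collecting duct then set the salt, water and acid content of urine. Skeletal muscle fibres hold sarcomeres of actin and myosin, triggered by calcium release from an internal store and fuelled by phosphocreatine, glycogen and fat. Many enzymes and pumps exist as a muscle form and a second form used by kidney and other organs, so the pairs can be read against each other.

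All 3 libraries were made from total RNA extracted with TRIzol, and the series is about how Dkk1 drives the LRP6 receptor into cells in cachexia. The labels give neither strain, age, sex nor the name of the muscle, and nothing in them says whether the libraries came from different mice. Adjusted p values therefore measure the spread between these samples, which may be technical. The table names carry a set letter, A for the kidney library, B for muscle library 1 and C for muscle library 2, so tissue and set cannot be told apart for kidney. Read totals were 42480786 in kidney, 27147790 in muscle library 1 and 21358854 in muscle library 2. Levels are given as CPM, read counts relative to the TMM-scaled library total (edgeR's cpm), a scaling that sets most genes level between libraries. Where a gene had no read, the limit was taken as 3 counts, or 0.0521 CPM in kidney, 0.15 in muscle library 1 and 0.140 in muscle library 2, for counting error only. Read mass was far more concentrated in muscle: the 10 most counted genes held 9.43% of kidney counts, 29.2% in muscle library 1 and 23.8% in muscle library 2. It took 699 genes to reach 50% of the kidney counts but 60 and 180 genes in the muscle libraries.

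The 2 tissues differed in many genes, with more of them higher in kidney. Of 12870 genes with enough counts to compare, 5872 (45.6%) were higher in kidney than in both muscle libraries and 4455 (34.6%) were lower than in both with 100 or more counts in each muscle library. A further 242 were lower than in both but under that minimum in 1 muscle library, and 2301 lay between the muscle libraries. At 2-fold or more against each muscle library, 3168 genes (24.6%) were higher in kidney and 1863 (14.5%) in muscle. At 16-fold or more, the counts were 939 (7.3%) and 453 (3.52%). edgeR's quasi-likelihood test called 1697 of 16009 tested genes higher in kidney (10.6%) and 943 higher in muscle (5.89%) at an adjusted p of 0.05. Each count of called list members below is to be read beside these shares of all tested genes. With total counts in place of TMM the called genes were 2126 and 673, since the median log2 ratio of all tested genes moved from 0.14 and 0.10, against muscle libraries 1 and 2, to 1.00 and 0.53. The test has 1 residual degree of freedom, from the muscle pair, and assumes that the single kidney library varies like that pair. All 1697 genes called for kidney, and 859 of the 943 called for muscle, were also 2-fold or more apart from both muscle libraries.

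The muscle libraries were not interchangeable. They differed from each other by a median of 0.59 on the log2 scale, and by 2-fold or more for 3704 of the 12870 genes. Near the limits of the rule, 66 genes with 100 to 110 kidney counts were apart, and 55 with 90 to 99 counts were higher in kidney than in both muscle libraries but under the minimum. A further 930 genes were apart by under 1.1-fold from 1 of the muscle libraries.

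**Figure D1:**
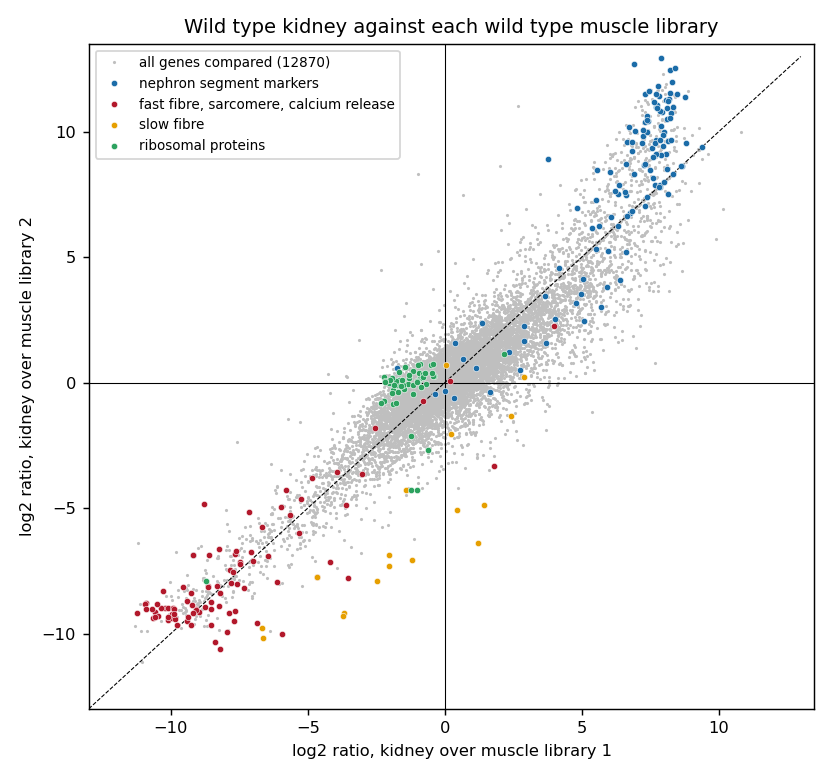
Each point is a gene, with the log2 ratio of kidney over muscle library 1 across and over muscle library 2 up, for 12870 genes in grey and 4 gene groups in colour. Nephron markers gather at the upper right and fast fibre, sarcomere and calcium release genes at the lower left, while slow fibre genes fall below the diagonal and most ribosomal protein genes sit left of it near 0 on the vertical axis.

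The 10 genes farthest above muscle had almost no reads there. Cckar, a cholecystokinin receptor, had 6230 counts in kidney and 0 and 1 in the muscle libraries, which is 108 CPM against 0 and 0.0467. It lies at chr5:53697776-53707705 (GRCm38). Tmem72, a membrane protein gene, had 2372 kidney counts and Aqp6, an intercalated cell water channel, had 2367, with 0 in both muscle libraries. Tfap2b, a transcription factor of the distal nephron, had 2204 counts against 0 and 0, at least 255-fold and 273-fold higher. Mia2 and A1cf, the latter a cofactor of RNA editing, were at 37.9 and 37.0 CPM and again at 0 in both muscle libraries. Erich4, the antimicrobial peptide gene Defb1, the esterase gene Aadac and the cytochrome P450 gene Cyp2d9 complete the 10 farthest, with 3888 to 10803 kidney counts and at most 6 in a muscle library. These 10 were ranked by their distance from both muscle libraries, so the lack of overlap with muscle was fixed by the choice. edgeR called all 10 on the same counts, with adjusted p from 0.000161 to 0.000182, which is no separate support.

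The 10 genes farthest below muscle included channels, actin, enzymes and a transcription factor. Dupd1, a phosphatase gene of muscle, had 0 counts in kidney against 2656 and 1251, so it was at least 2550-fold and 1121-fold higher in muscle. Nmrk2, a kinase in NAD synthesis, was at 0.122 CPM in kidney and 342 and 175 CPM in muscle. Ryr1, the calcium release channel, was at 2.69 CPM in kidney and 2414 and 2217 CPM in muscle, an 896-fold and 823-fold difference that barely moved between the muscle libraries. Acta1, skeletal alpha-actin (chr8:123891769-123894751, GRCm38), was at 44.5 CPM in kidney and 48507 and 31522 CPM in muscle. Dhrs7c, Myoz3, Art1, Myf6 and Xirp2 were also among the 10, each at least 706-fold higher against either muscle library. edgeR called all 10 with adjusted p up to 0.03, again on the counts by which they were chosen.

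Per gene length, the most abundant kidney transcript was Kap, the androgen-regulated protein of the proximal tubule, at 39000 RPKM in kidney against 68 and 6.93 in muscle. Gpx3, the glutathione peroxidase that kidney secretes into plasma, followed at 20639 RPKM against 357 and 295. The next 8 were lower by a wide margin, from 3187 RPKM for the aminoacylase gene Acy3 to 2204 RPKM for Cyp4b1, and included Klk1, Cd74, Eef1a1 and the ferritin genes Ftl1 and Fth1. Fth1 was the gene of this group closest to muscle, at 2756 RPKM in kidney and 1431 and 836 RPKM in muscle. By TMM-scaled CPM, Fth1 was 1.05-fold and 2.44-fold higher in kidney, and Ftl1 was 4.88-fold and 3.83-fold higher. By the mean of the 2 muscle libraries, Tnnc2, fast troponin C, was highest in muscle, with 33089 and 12095 RPKM against 31.2 in kidney, although Acta1 (20112 RPKM), Rn45s and Tnnt3 (13439 RPKM) were higher in muscle library 2. Acta1, Tnnt3, Ckm, Pvalb, Mylpf, Tnni2, Aldoa and Myl1 followed, all parts of the muscle fibre or its fuel supply. The tenth by that mean was Rn45s, the ribosomal RNA precursor, at 286 RPKM in kidney and 3364 RPKM in muscle library 1, but at 14216 RPKM in muscle library 2, where only Acta1 was higher among these 10.

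Proximal tubule genes were almost all higher in kidney. Of 54 markers, all tested, edgeR called 52 higher in kidney and 0 higher in muscle, and 51 were 16-fold or more higher against both muscle libraries. Their median log2 ratio was 7.71 against muscle library 1 and 10.15 against muscle library 2. Lrp2, the endocytic receptor megalin, was at 1453 CPM in kidney and 4.80 and 0.420 CPM in muscle. Its partner Cubn was at 212 CPM against 0.701 and 0.514, a log2 difference of 8.44 ± 0.75 (SE, adjusted p = 0.000161 by edgeR). Slc34a1, the main phosphate carrier of the brush border, was at 2604 CPM in kidney and 10.6 and 1.40 in muscle. Both sodium-glucose carriers were called, Slc5a2 at 363 CPM against 3.60 and 1.96 and Slc5a1 at 46.1 CPM against 0.400 and 0. Slc7a13, an amino acid carrier, was the member farthest from both muscle libraries, at 909 CPM in kidney and 2.00 and 0.280 in muscle, and it was followed by the brush border protease gene Mep1a and the organic anion carrier gene Slco1a1. The exceptions were Slc7a8, a basolateral amino acid carrier, at 43.6 CPM against 8.51 and 18.5 (adjusted p = 0.116 by edgeR), and Aqp1. Aqp1, the water channel of proximal tubule and of capillary endothelium, was at 689 CPM in kidney, 541 in muscle library 1 and 1042 in muscle library 2, so that kidney lay between the muscle libraries.

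Later segments were also set apart, each with named exceptions. For the loop of Henle, 15 of 20 markers were called higher in kidney. Umod, the urinary protein uromodulin, was at 2429 CPM against 12.1 and 0.981, and Slc12a1, the target of loop diuretics, at 510 CPM against 1.6 and 0.234. Sim2, Bst1, Enox1, Ppp1r1a and Casr, the calcium-sensing receptor, were not called, and Ppp1r1a was highest in muscle library 1, at 215 CPM against 63.4 in kidney. In the distal convoluted tubule, 9 of 14 markers were called higher in kidney, led by the thiazide target Slc12a3 (254 CPM against 0.500 and 0.280), the kinase gene Wnk4 (95.8 CPM against 0.350 and 0.374) and Kl, encoding klotho (746 CPM against 3.60 and 0.934). Pvalb, a marker of this segment that fast fibres also use, went the other way, at 49.8 CPM in kidney and 29083 and 5900 in muscle (adjusted p = 0.0303 by edgeR).

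In the collecting duct, 13 of 16 principal cell markers and 15 of 17 intercalated cell markers were called higher in kidney, and 0 in muscle. Aqp2, the vasopressin-regulated water channel, was at 316 CPM against 1.30 and 0.327. Avpr2, the vasopressin receptor, had 809 kidney counts and 0 in both muscle libraries, at least 93.6-fold and 100-fold higher. The 3 sodium channel subunit genes, Scnn1a, Scnn1b and Scnn1g, were at 25.4 to 57.3 CPM in kidney and at most 1.1 in muscle. Intercalated cells, which secrete acid or base, were represented by Slc26a4, at 49.8 CPM against 0.100 and 0, and by the proton pump subunit gene Atp6v0a4, at 91.8 CPM against 0.250 and 0. Foxi1, the factor that specifies these cells, had 783 kidney counts and 0 in both muscle libraries. Aqp4, Nr3c2 and Stc1 among principal cell markers, and Kit and Dmrt2 among intercalated cell markers, were not called. Since 7 and 10 members of these lists were at 0 in a muscle library, medians were also taken with 0 set to 3 counts: 6.68 and 6.72 for principal cells and 6.50 and 7.18 for intercalated cells.

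Podocyte genes were mixed. Only 5 of 16 were called, all higher in kidney, among them Nphs1, of the slit diaphragm, the basement membrane collagens Col4a3 and Col4a4, and Wt1. Nphs1 had 631 kidney counts and 0 in both muscle libraries, and Col4a3 was at 220 CPM against 2.60 and 2.71. Synpo, at 27.7 CPM in kidney and 108 and 215 in muscle, and Podxl, at 130 CPM in kidney and 52.8 and 131 in muscle, were not called. These levels compare kidney with muscle, where Synpo and Podxl also had reads, and do not measure how many podocytes the kidney sample held.

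**Figure D2:**
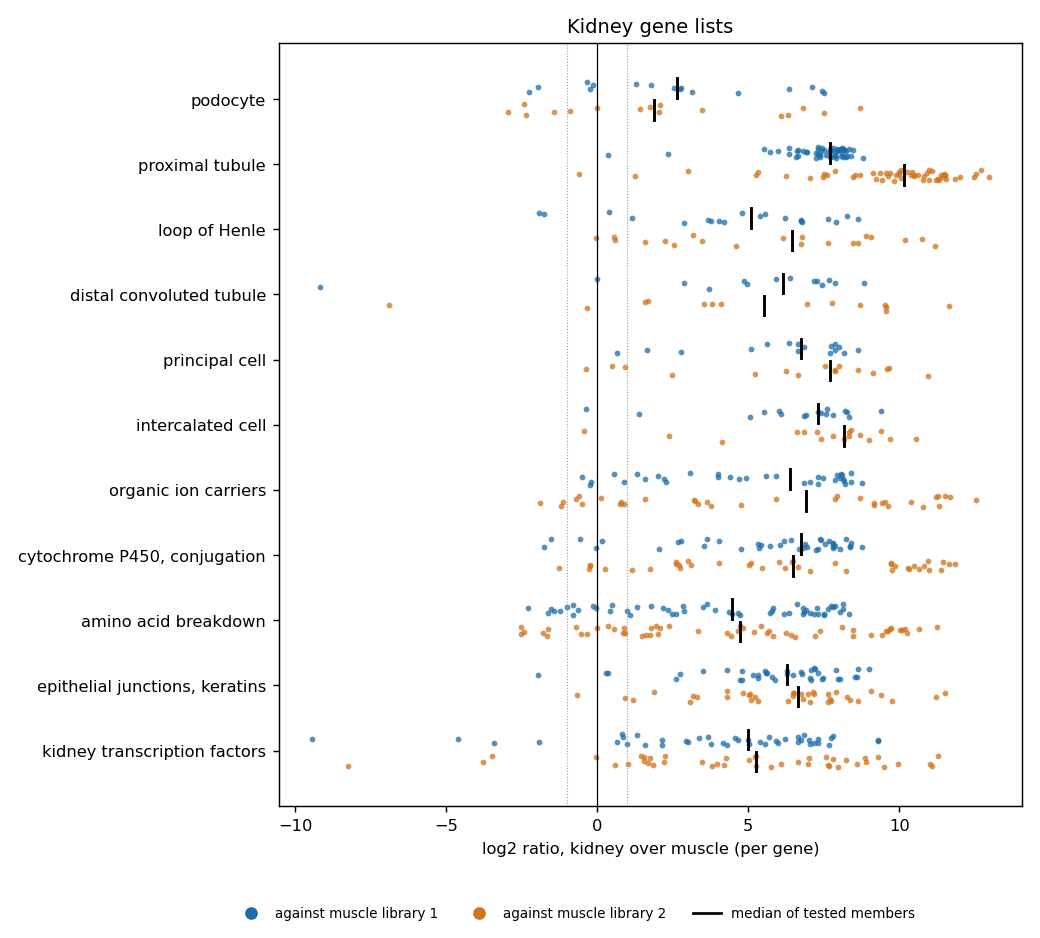
Each point is 1 gene of a kidney list, placed by its log2 ratio of kidney over muscle library 1 (blue) or muscle library 2 (orange), with the median of tested members as a black bar and 2-fold lines dotted. Proximal tubule genes lie in a narrow band near 7.71 against muscle library 1 and a wider one near 10.15 against muscle library 2, and podocyte genes spread across 0.

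Reads of kidney genes inside the muscle libraries differed between those libraries. Over all 54 proximal tubule genes the median RPKM was 0.252% of the kidney level in muscle library 1 and 0.0367% in muscle library 2. RPKM is relative to the read total without TMM scaling. For a given gene, these shares therefore differ from the log2 ratios by the TMM factors and the prior count. The TMM factors were 1.36 in kidney, 0.736 in muscle library 1 and 1.00 in muscle library 2. For the 51 proximal tubule genes 16-fold or more apart, a choice that itself fixes a low share in both wild type muscle libraries, the median in muscle library 1 was 0.249%, with quartiles of 0.189% and 0.331% and no gene at 0. In muscle library 2 the median was 0.0308%, with quartiles of 0.0172% and 0.0890% and 7 genes at 0. Tumour PBS muscle stood at 0.0909%, tumour MDC muscle at 0.0413%, and the other three muscle libraries, from wild type mice given DKK1 and from barr ko (beta-arrestin knockout) mice given PBS or DKK1, at 0.0203% to 0.0348%. Log2 ratios against muscle library 1 had quartiles of 7.27 and 8.10 and ran from 5.52 to 8.78, while those against muscle library 2 had quartiles of 9.30 and 11.29 and ran from 5.25 to 12.96. The part these counts play in the ratios was not tested. In the other direction, 78 contractile and calcium release genes chosen by the same 16-fold limit stood in wild type kidney at a median of 0.295% of their muscle level, and in tumour PBS kidney at 0.275%.

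**Figure D3:**
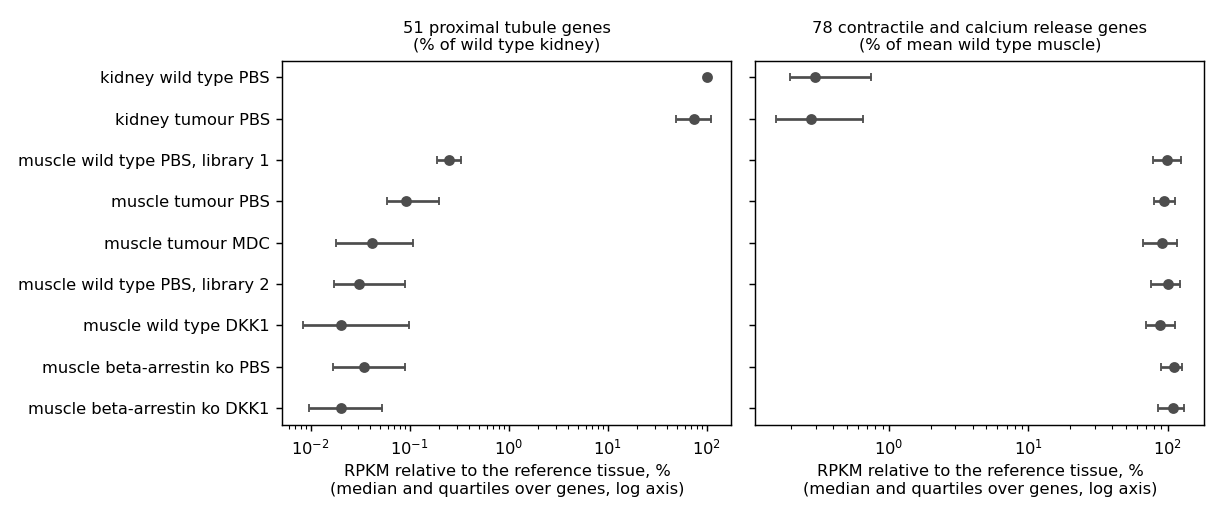
Median and quartiles over genes of RPKM, as a percentage of the reference tissue on a log axis, in all 9 libraries for 51 proximal tubule genes (left, reference wild type kidney) and 78 contractile and calcium release genes (right, reference mean of wild type muscle). On the left, muscle library 1 is the highest of the 7 muscle libraries at 0.249% with the narrowest quartiles, and on the right both kidney libraries lie near 0.3%.

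Transport and detoxification genes followed the tubule. Of 32 tested organic ion carriers 23 were called higher in kidney, of 34 amino acid carriers 15, and of 40 cytochrome P450 and conjugation genes 31. Slc22a22, Slco1a1 and Slc22a7 led the organic ion carriers, with Slc22a7 at 62 CPM in kidney and 0.150 and 0.0467 in muscle. Slc6a20b and Slc6a18, carriers of imino and neutral amino acids, were at 181 and 398 CPM in kidney and at most 2.35 in muscle. Muscle had its own carriers: Slc7a2, for cationic amino acids, was at 1.63 CPM in kidney and 88.6 and 101 in muscle, and Slc38a4 and Slc43a1 were also called higher there. Among the P450 genes, Cyp4a12b, which hydroxylates fatty acids, was at 134 CPM against 0.250 and 0.0934, and Ugt2b38, a glucuronosyltransferase, at 1280 CPM against 3.75 and 0.420. Cyp27a1, a mitochondrial sterol hydroxylase, was the member highest in muscle relative to kidney, at 27.2 CPM in kidney and 78.9 and 65.3 in muscle, and did not pass the test (adjusted p = 0.198 by edgeR).

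Of 17 tested genes of gluconeogenesis and fructose use 7 were called higher in kidney and 0 in muscle, and of 18 glucose and lactate carriers 11 and 2. G6pc, which releases glucose in the last step of gluconeogenesis, was at 265 CPM in kidney and 1.45 and 0.374 in muscle. Pck1, the committed enzyme of that pathway, was at 2380 CPM against 20.1 and 136 and was called, although the muscle libraries were far from each other. Slc2a2, the carrier that lets glucose leave the tubule cell, was at 139 CPM against 0.500 and 0.140, whereas the insulin-responsive carrier Slc2a4 was at 18.8 CPM in kidney and 974 and 862 in muscle. Slc5a12 and Slc5a8, which recover lactate from the filtrate, were kidney genes (539 and 232 CPM against at most 2.05), and Slc16a3, which exports lactate from glycolytic fibres, was at 1.06 CPM in kidney and 492 and 470 in muscle. Amino acid breakdown was a kidney feature too: 33 of 53 tested genes were called higher there and 0 in muscle. Dmgdh, of choline and glycine breakdown, was at 116 CPM against 0.300 and 0.0467, and Acmsd, of tryptophan breakdown, at 171 CPM against 0.551 and 0.140.

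Hormone and mineral genes of the kidney stood out in the same way. Of 15 tested renin-angiotensin and kallikrein genes 8 were called higher in kidney. Ren1, encoding renin, was at 47.9 CPM against 0.2 and 0, and Klk1, tissue kallikrein, at 1486 CPM against 5.86 and 0.234. Agt, the angiotensinogen precursor, was the 1 gene of the list called higher in muscle, at 0.139 CPM in kidney and 9.46 and 9.67 in muscle. Of 22 genes of vitamin D, phosphate and calcium handling 14 were called higher in kidney, and Slc20a2, a phosphate carrier of most cells, was at 46.9 CPM in kidney and 95.8 and 109 in muscle without being called. Of 21 proton pump subunits 9 were called higher in kidney. Epithelial junction and keratin genes separated the tissues nearly as fully as tubule markers, with 31 of 38 tested called higher in kidney, among them Cldn4 (1396 counts against 0 and 0), the kidney cadherin Cdh16 (584 CPM against 2.15 and 0.140) and the pore-forming claudin Cldn2 (592 CPM against 2.30 and 0.187).

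Fast fibre genes were the mirror of the proximal tubule. All 19 were called higher in muscle, with median log2 ratios of -10.09 and -9.0. Myh4, the heavy chain of the fastest fibres, was at 52.5 CPM in kidney and 79754 and 29352 in muscle, while Myh1 and Myh2, of intermediate and oxidative fast fibres, were higher in muscle library 2 (10305 and 3014 CPM) than in muscle library 1 (2671 and 178 CPM). Atp2a1, the calcium pump of fast fibres, was at 31.4 CPM in kidney and 30228 and 20072 in muscle. Casq1, which stores the calcium, was at 4.45 CPM against 4461 and 2692. Myl1, Mylpf, Tnnt3, Tnni2 and Tnnc2, parts of the myosin and troponin complexes, were 438-fold to 2414-fold higher in muscle. Mybph also varied between the muscle libraries, at 908 and 59.1 CPM, with 2.00 CPM in kidney.

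Slow fibre genes told the muscle libraries apart more than they told muscle from kidney. Only 8 of 17 were called, all higher in muscle, and the median log2 ratio was -1.43 against muscle library 1 and -6.87 against muscle library 2, or -1.61 and -7.09 with 0 set to 3 counts. Myh7, the slow heavy chain, was at 1.03 CPM in kidney, 2.45 in muscle library 1 and 144 in muscle library 2. Tnni1, slow troponin I, was at 0.313 CPM in kidney, 0.100 in muscle library 1 and 31.6 in muscle library 2, so kidney lay between the muscle libraries. The level in muscle library 1 was under the 0.15 CPM of 3 counts, so its order with kidney rests on few reads. Tnnc1 showed the same order, at 0.851, 0.601 and 31.1 CPM. Atp2a2 and Tpm3, used by most cells, were higher in kidney than in muscle library 1 (267 against 35.9 CPM for Atp2a2), and Tpm3 was higher in muscle library 2 than in kidney. Mb, encoding myoglobin, Mybpc1 and Casq2 were the members farthest from kidney in both muscle libraries, with Mb at 4.93 CPM in kidney and 507 and 4357 in muscle. Which muscle each library came from is not labelled, and fibre type and set letter cannot be told apart here.

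Sarcomere and calcium release genes were nearly all muscle genes. Of 42 structural genes of the sarcomere 40 were called higher in muscle, and of 31 genes of excitation and calcium release 28, with 0 higher in kidney. Xirp2, an actin-binding gene of the sarcomere's ends, was 951-fold and 706-fold higher in muscle. Jsrp1, a partner of the calcium release complex, was at 0.504 CPM in kidney and 875 and 362 in muscle. In the dystrophin complex 15 of 25 genes were called higher in muscle, among them the sarcoglycan Sgca (0.226 CPM against 238 and 152) and Cav3 (0.104 CPM against 96.5 and 68.2). Dtnb, the dystrobrevin of kidney and brain, was called the other way, at 19.5 CPM in kidney and 1.25 and 2.62 in muscle.

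The neuromuscular junction list divided by partner. Subunits of the acetylcholine receptor on the fibre were muscle genes: Chrna1 had 0 kidney counts against 261 and 487, and Chrnd 0 against 101 and 162, at least 97-fold and 145-fold higher. The adult subunit gene Chrne was at 0.0521 CPM in kidney and 25.4 and 13.3 in muscle. Agrn, the matrix signal that clusters these receptors and also a component of the glomerular basement membrane, was called higher in kidney, at 110 CPM against 22.5 and 23.5. The neuregulin gene Nrg1 and its receptor gene Erbb3 were also called higher in kidney. In all, 9 of 18 members were called higher in muscle and 3 in kidney. Satellite cell markers were mixed: Cdh15 (0 counts in kidney against 460 and 434), Chodl, Itga7 and Des, which fibres also express, were called higher in muscle, and Sdc4 was called higher in kidney at 267 CPM against 27.2 and 29.8. Pax7, which defines satellite cells, had 2 counts in kidney, 0 in muscle library 1 and 48 in muscle library 2.

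Most pairs of a muscle form and a second form of the same protein had a different leading form between the tissues. Among 38 pairs of a muscle form and a second form, the muscle form made up over 50% of the pair's summed RPKM in both muscle libraries and under 50% in kidney for 31 pairs. It was over 90% in both muscle libraries for 28 pairs and under 10% in kidney for 20. The muscle form was called higher in muscle for 32 pairs, and the second form was called higher in kidney for 17. In 13 pairs both forms were called in opposite directions, in 18 only the muscle form was called, and in 4 only the second form.

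Partners of the sodium pump differed too. The regulator Fxyd1 made up 0.119% of its pair with Fxyd2 in kidney and 98.3% and 99% in muscle, where Fxyd2, at 1551 RPKM in kidney, was at 5.72 and 1.47 RPKM. Atp1b2 made up 0.337% of its pair with Atp1b1 in kidney, 86.9% in muscle library 1 and 27.0% in muscle library 2, so this subunit did not switch in both. Creatine kinase switched in the cytosol, from 33.0% Ckm to 100% and 99.9%, and in mitochondria, from 7.70% Ckmt2 to 100% in both muscle libraries, with Ckb and Ckmt1 called higher in kidney. Ckm was at 26.7 RPKM in kidney against 23876 and 10384 RPKM in muscle. Contractile and calcium release genes stood in kidney at a median of 0.295% of their muscle level. The part of such reads in the kidney shares of muscle forms was not tested.

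In glycolysis, Eno3 went from 2.90% to 98.6% in both muscle libraries, Hk2 from 2.45% to 97.4% and 96.8%, and Pgam2 from 16.3% to 99.8% and 99.1%. Pfkm and Pkm did not switch, since they already made up 54.4% and 86.6% of their pairs in kidney, and both were called higher in muscle. For lactate dehydrogenase, Ldha was 31.6% of the pair in kidney and 99.3% and 90% in muscle, but neither Ldha nor Ldhb was called. In the AMPK catalytic pair Prkaa2 led in both tissues, at 82.7% in kidney and 90.4% and 88.2% in muscle and neither gene called. Caveolin was the 1 pair with both forms called higher in muscle: Cav3 at 0.122 RPKM in kidney against 61.4 and 59.1, and Cav1, also of endothelium and fat, at 17.8 RPKM against 77.9 and 167. Cav3 remained under 50% of its pair in muscle.

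**Figure D4:**
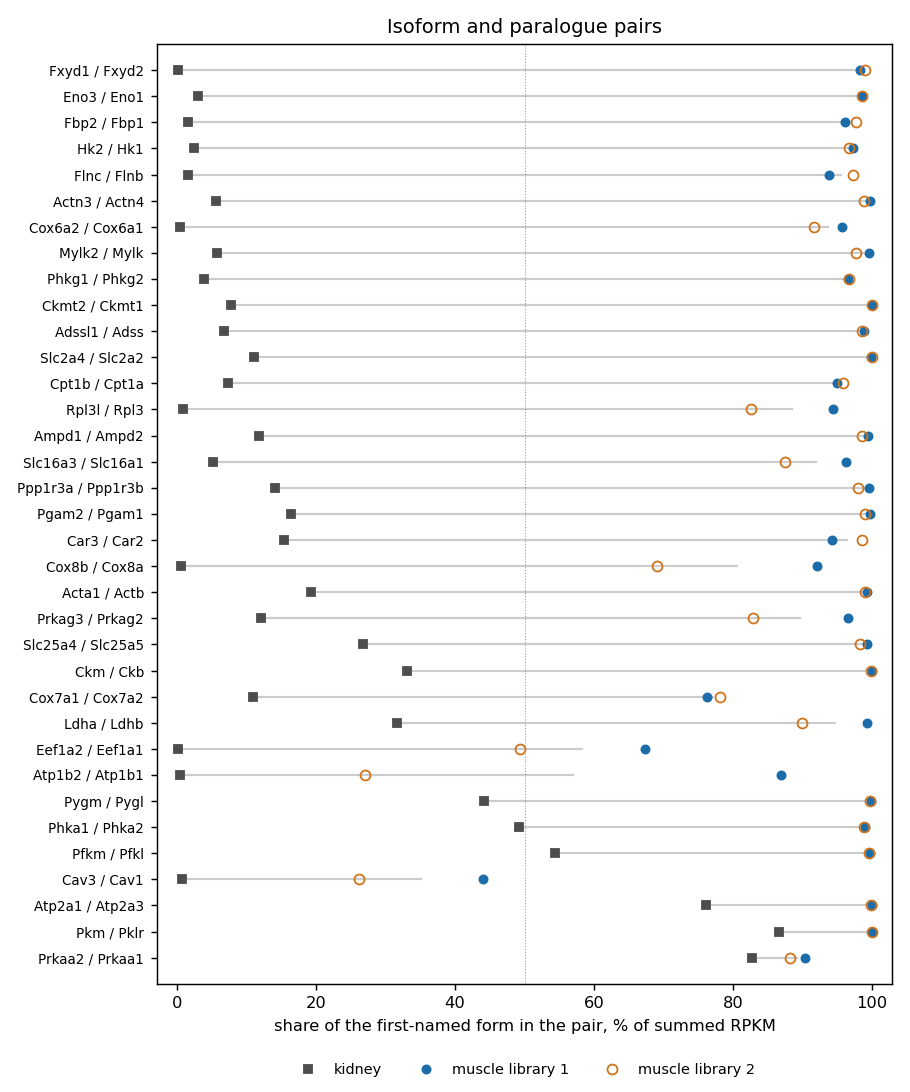
For 35 of the 38 pairs, the share of the first-named form in the pair's summed RPKM (%) in kidney (square), muscle library 1 (filled circle) and muscle library 2 (open circle), with a grey line from kidney to the muscle mean. In 28 of these 35 pairs the share passes from under 50% in kidney to over 50% in both muscle libraries. Cav3, Atp1b2 and Eef1a2 fall short in muscle, and Pfkm, Atp2a1, Pkm and Prkaa2 lie over 50% in kidney.

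Of 82 nuclear-encoded respiratory chain genes 5 were called: Cox6a2, Cox7a1 and Cox8b higher in muscle, Cox6a1 and Cox8a higher in kidney. Cox6a2, the muscle form of its cytochrome oxidase subunit, was at 1.41 CPM in kidney and 1092 and 458 in muscle, and Cox6a1 at 318 CPM in kidney and 39.2 and 33.7 in muscle. The median log2 ratio of the 82 was -1.75 against muscle library 1 and -0.68 against muscle library 2, beside 0.14 and 0.10 for all tested genes. Of 22 citric acid cycle genes Idh1, a cytosolic enzyme, and Suclg2, the GTP-forming subunit, were called higher in kidney. Cs and Idh3a were 5.38-fold to 7.72-fold higher in muscle without being called (adjusted p = 0.13 and 0.0848 by edgeR). Most of the 26 tested genes of fat oxidation were not called, and their median log2 ratios were 0.54 and 0.34. Within that list Cpt1a, the gatekeeper form of liver and kidney, was at 436 CPM in kidney and 22.4 and 23.5 in muscle. Cpt1b was at 22.9 CPM in kidney and 291 and 373 in muscle, and both were called. Acsm5 and Acsm3, for medium-chain fatty acids, were called higher in kidney and Acsl6, for long-chain fatty acids, in muscle. Peroxisomal genes leaned to kidney, with 16 of 48 tested called higher there, including Acox2 and Hao2, and Abcd2 called higher in muscle.

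Proteasome and ribosomal protein genes had 1 call between them. Of 31 proteasome genes 0 were called by edgeR, DESeq2 or limma-voom, and 0 passed 0.05 in edgeR before adjustment. Psmd7 alone was 2-fold or more higher in both muscle libraries. The proteasome median was -0.88 and -0.22 against muscle libraries 1 and 2, and -0.00 and 0.21 with total counts, so its sign depends on the scaling. The median of all tested genes was 0.14 and 0.10 with TMM, and 1.00 and 0.53 with total counts. The proteasome median lay below that of all tested genes under both scalings. Of 53 ribosomal protein genes 1 was called, Rpl3l, the muscle replacement for Rpl3, at 1.44 CPM in kidney and 637 and 360 in muscle. The ribosomal protein median was -1.30 against muscle library 1 and 0.05 against muscle library 2, so these genes separate the muscle libraries from each other. The atrophy ligase genes Fbxo32 and Trim63 were called higher in muscle in these PBS-treated mice. Fbxo32 was at 5.37 CPM in kidney and 369 and 231 in muscle. Trim63 was at 9 CPM in kidney and 264 and 127 in muscle. Of that list of 20 tested genes 9 were called higher in muscle, among them Asb5, Klhl31 and Asb2, and 0 in kidney. Other ligases of the list were not called, such as Fbxo30, at 13.6 CPM in kidney and 14.6 and 20.4 in muscle. Fbxo40, at 20.6 CPM in kidney and 17.1 and 187 in muscle, was not called either.

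Transcription factors divided by lineage. Of 43 kidney factors 27 were called higher in kidney, and of 34 muscle factors 15 higher in muscle and 0 in kidney. Hnf4a, a regulator of proximal tubule genes, was at 741 CPM in kidney and 3.40 and 0.280 in muscle. Sall1, needed for nephron formation, had 2199 kidney counts against 0 and 2. The reverse held for Six2, known from nephron progenitors of the embryo, with 0 kidney counts against 832 and 398, and for Bhlhe41, at 7.78 CPM in kidney and 190 and 107 in muscle. Myf6, a myogenic factor of adult fibres, was at 0.122 CPM in kidney and 180 and 126 in muscle, and Myod1 at 0.104 CPM against 24.0 and 51.0. Mef2c was at 8.01 CPM in kidney and 516 and 520 in muscle, whereas Mef2a, at 45.2 CPM against 148 and 154, was not called.

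Promoters were searched for letters that factors of these families are known to bind. The windows ran from 250 bases before to 50 after each start in RefSeq on GRCm38, and 680 of the 939 kidney genes and 322 of the 453 muscle genes at 16-fold or more had one by symbol. HNF4 letters, AAAGTCCA, searched like the others on both strands, were in 30 kidney genes (4.41%), 3 muscle genes (0.932%) and 173 of all 11835 tested genes with a window (1.46%). The MEF2 motif was in 41 muscle genes (12.7%), 18 kidney genes (2.65%) and 291 of all (2.46%), and also in 4 of 44 proximal tubule list genes with a window (9.09%). The CArG box, bound by serum response factor, was in 11 muscle genes (3.42%), 7 kidney genes (1.03%) and 192 of all (1.62%). The E-box CAGCTG was common everywhere, in 106 muscle genes (32.9%), 141 kidney genes (20.7%) and 2199 of all (18.6%). A match is a description of letters, not a bound site. The stretches below show where the letters sit in genes of either tissue, 5′ to 3′ on the strand of the gene, with the motif in capitals: HNF4 in Slc3a1, MEF2 in Xirp2, Clcn1 and Myh4, and the CArG box in Acta1 and Actc1.
Slc3a1 (chr17:85028279-85028346, plus strand): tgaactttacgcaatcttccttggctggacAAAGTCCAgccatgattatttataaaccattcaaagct
Xirp2 (chr2:67445898-67445967, plus strand): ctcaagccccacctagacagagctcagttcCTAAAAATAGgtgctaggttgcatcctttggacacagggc
Clcn1 (chr6:42286604-42286673, plus strand): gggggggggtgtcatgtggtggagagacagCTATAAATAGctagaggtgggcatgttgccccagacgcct
Myh4 (chr11:67237600-67237669, plus strand): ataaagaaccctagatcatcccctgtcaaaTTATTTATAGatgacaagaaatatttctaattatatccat
Acta1 (chr8:123894809-123894878, minus strand): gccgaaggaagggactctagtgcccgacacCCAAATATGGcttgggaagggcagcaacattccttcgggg
Actc1 (chr2:114052883-114052952, minus strand): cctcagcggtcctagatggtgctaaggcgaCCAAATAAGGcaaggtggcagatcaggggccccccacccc

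Slc3a1, a subunit of the cystine carrier, was at 517 CPM against 5.36 and 2.57. Clcn1 was at 0.243 CPM in kidney and 92.0 and 147 in muscle, and Actc1, the cardiac actin that muscle also makes, at 0.643 CPM in kidney and 433 and 235 in muscle. The CArG boxes of Acta1 and Actc1 began 73 and 47 bases before the start.

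Of 46 tested genes of the Wnt pathway, which the series studies, 8 were called higher in kidney and 4 in muscle, where 10.6% and 5.89% of all tested genes were called. Lrp6, the co-receptor named in the series title, was at 138 CPM in kidney and 37.0 and 63.6 in muscle, and was not called (adjusted p = 0.167 by edgeR). Dkk1, its secreted ligand, had 0 counts in all 3 libraries, so it was not detectable at this depth. Dkk3 was called higher in muscle, at 17.3 CPM in kidney and 169 and 89.0 in muscle. Arrb1 was at 52 CPM in kidney and 18.5 and 21.7 in muscle, and Arrb2 at 8.50 CPM against 8.11 and 8.41, neither called. Notum, which inactivates Wnt ligands, was at 19.7 CPM against 0.150 and 0.234, Sfrp1, a secreted Wnt antagonist, at 111 CPM against 2.55 and 5.56, and Wnt9b, a ligand of the developing tubule, at 10.4 CPM against 0.300 and 0.187. Fzd9, a Wnt receptor, was the muscle gene farthest apart, at 0.0347 CPM in kidney and 30.7 and 22.7 in muscle, followed by the ligands Wnt11 and Wnt4.

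Markers of other cell types showed what else the samples held. Of 14 fibroblast genes 9 were called higher in muscle, such as Dpt, at 1.04 CPM in kidney and 57.7 and 50.7 in muscle, and the summed level was 175 CPM in kidney and 1121 and 2159 in muscle. Of 19 endothelial genes 3 were called, Cdh5, Ly6c1 and Vwf, all higher in muscle. Of all tested genes 16.5% were called in either direction and 5.89% higher in muscle. Plvap and Ehd3, of fenestrated and glomerular vessels, were higher in kidney without being called (50.9 CPM against 17 and 21.6 for Plvap). Macrophage markers summed to 149 CPM in kidney, 112 in muscle library 1 and 652 in muscle library 2, and myelin genes to 29.1, 54.9 and 251 CPM. Of 14 adipocyte markers Plin4 was called higher in muscle, at 8.06 CPM in kidney and 227 and 529 in muscle. Pck1, also of gluconeogenesis, was called higher in kidney, and the other adipocyte markers were not called. In kidney, Plin1, Cidea, Ucp1 and Fasn lay between the muscle libraries, above muscle library 1 and below muscle library 2. Of the liver list Ttr and Apob were called higher in kidney, while Alb was at 3.30 CPM in kidney and 6.16 and 1.45 in muscle. The 10 adrenal cortex markers summed to 6.69 CPM in kidney and 3.35 and 14.6 in muscle, with Cyp11b1, Cyp11b2 and Cyp21a1 at 0 in all 3 libraries, Star at 186 counts in kidney and Akr1b7 at 137 against 4 and 0. The 10 cardiac markers summed to 3.18 CPM in kidney, 3.90 in muscle library 1 and 67.6 in muscle library 2, where Myh6 alone was at 56.4 CPM. Of these, Nppb, Myl7, Gata4 and Nkx2-5 were at 0 in all 3 libraries, and none of the 10 was called. The defining markers of each labelled tissue, Umod, Lrp2, Nphs1 and Aqp2 in kidney and Myh4, Ckm and Acta1 in muscle, were thus present where the labels place them. Beside these stood a list of RNA quality and immediate early genes. Rn45s was at 1229 CPM in kidney and 26658 and 82728 in muscle, or 0.167%, 1.96% and 8.29% of counts, and was not called. Rmrp, Rpph1, Lars2, Fos and Egr1 were called higher in muscle. Malat1, Neat1, Jun and Atf3 were not called, and Malat1 was higher in kidney, at 544 CPM against 358 and 319. The part of these genes in the differences was not tested.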

How the data were processed

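RNA sequencing was read from 1 deposited table per library with 24421 gene symbols. The authors' deposited counts are raw read counts per gene, and their RPKM, deposited beside the counts, is per kilobase of the gene length they also list; RPKM recomputed from counts and length deviated by at most 0.000495%. Reads were aligned with HISAT2 2.1.0 to mm10, per the submitters' processing notes. The sources used here do not name the counting program, its annotation, its strand setting or how multi-mapped reads were treated, so overlapping genes and near-identical copies (53 genes in 24 groups with the same counts) are uncertain. No mitochondrially encoded gene is listed.

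Counts of the 3 libraries were scaled with TMM and tested with edgeR 4.0.16 (glmQLFit, glmQLFTest, filterByExpr with a minimum count of 10, Benjamini-Hochberg adjustment, threshold 0.05) in R 4.3.3, which kept 16009 genes. The biological coefficient of variation was 0.538 and empirical Bayes gave 10.2 prior degrees of freedom. Log2 ratios per library used a prior count of 2, folds are ratios of CPM, and a count of 0 was set to 3 counts for a bound. Isoform shares used RPKM. Alternatives were DESeq2 1.42.0, limma-voom (limma 3.58.1), other scalings and filters, and all 9 libraries. The methods were tested on simulated data. Gene positions are from GENCODE on GRCm38 and promoters from RefSeq on GRCm38.

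Named genes were the 10 highest and 10 lowest, up to 3 per direction in each of 49 lists, members of 38 isoform pairs, the 10 most abundant per tissue, and cell type markers. Further genes were chosen after their values were seen: Fbxo32, Trim63, Fbxo30, Fbxo40, Myod1, Mef2a, Mef2c, Lrp6, Dkk1, Dkk3, Arrb1, Arrb2, Rpph1, Lars2, Egr1 and Actc1. The members and lists were chosen with earlier results of these data known. Some genes of the lists are not reported here by name.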

Additional observations from a re-analysis of the deposited data

How the results depend on the processing

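With 1 kidney and 2 muscle libraries, a leave-one-out fit leaves no residual degree of freedom and gives no test. No paired analysis was possible because kidney carries no replicate number and no label ties libraries to a shared mouse. Calls higher in kidney and in muscle were 1710 and 958 with DESeq2 size factors, 2126 and 673 with total counts, 1859 and 1062 without the filter, 1732 and 1382 with DESeq2, 1454 and 749 with limma-voom, and 1420 and 799 with all 9 libraries, beside 1697 and 943. With total counts, genes apart and higher in muscle fell to 2590, and those 2-fold or more apart to 1155. Without either muscle library in turn, genes 2-fold or more higher in muscle numbered 2688 to 2994, and those in kidney 3692 to 4176; the cause was not tested beyond the rule then asking for 1 ratio in place of 2. The log2 difference turned with total counts for Cox7a2 (0.25), Prkaa2 (0.0502) and Ppp1r3b (0.42), and with limma-voom for Ppp1r3b (0.24), none of them called in either fit. Of the alternatives for single genes, 1388 kept direction and side of the threshold, 36 gained and 30 lost the call. With total counts, 27 of the 49 list medians moved by more than the spread between muscle libraries and 22 did not. With DESeq2 size factors all 49 stayed within that spread. Leaving out a muscle library only returns the median against the other, which cannot leave that spread, so it was no check of the medians. Genes with few counts in kidney are limited by depth: 3 counts are 0.0521 CPM there.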

Other observations

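Secreted factors and sex-linked genes add values that belong to none of the comparisons above. Mstn, encoding myostatin, which limits muscle growth, was at 0.139 CPM in kidney and was called higher in muscle, by 677-fold and 740-fold. Ostn, a peptide of muscle and bone, had 0 kidney counts against 2853 in muscle library 1 and 109 in muscle library 2, so it was called while the muscle libraries differed widely from each other. Igf2, a growth factor, was at 1.18 CPM in kidney and 33.7 and 37.6 in muscle. Bdnf, a neurotrophin, was called higher in kidney, at 10.6 CPM against 0 and 0.701. Gdf15, a stress-induced factor that acts on appetite, was at 6.10 CPM in kidney and 0 and 0.794 in muscle and was not called (adjusted p = 0.137 by edgeR).

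The Y-linked genes Ddx3y, Eif2s3y, Kdm5d and Uty had counts in all 3 libraries, from 746 to 2208 in kidney and from 150 to 1583 in the muscle libraries. Xist, expressed from the inactive X chromosome, had 29 counts in kidney, 0 in muscle library 1 and 3 in muscle library 2.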
